A study of Mus musculus with 6 samples.

Results

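The members described here are 10 long non-coding RNAs (lncRNAs) that act in the nucleus or come from imprinted domains: *Malat1*, *Neat1*, *Miat*, *Tug1*, *Meg3*, *Rian*, *Mirg*, *Kcnq1ot1*, *H19* and *Rmst*. They were chosen by symbol from the 24421 rows of a gene count table, and all 10 were found there and passed the filter on low counts. The table holds RNA-seq of whole mouse heads at embryonic day (E) 9.0, in 3 WT libraries labeled SnrpB +/+ and 3 Het libraries labeled as mutant, SnrpB+/-. The labels name both CD1 and C57BL/6, and the methods of the study give the embryos a mixed CD1 and C57BL/6J background. In Het embryos 1 copy of *Snrpb*, which encodes a core protein of the spliceosome, was deleted by a Cre transgene under *Wnt1* control (*Wnt1-Cre2*). This driver acts in the dorsal neural tube and the neural crest cells, so the other cells of a Het head kept both copies. Each library pooled 2 heads of 1 genotype from different litters, matched by somite number. Whether the WT embryos carried the Cre transgene is not given in the sources used here.

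LncRNAs are transcripts without a long open reading frame, and many stay in the nucleus. *Malat1* and *Miat* collect in or near nuclear bodies, *Malat1* in the speckles that store splicing factors, and *Neat1* is the scaffold on which paraspeckles assemble. In an imprinted domain only the copy inherited from 1 parent is active: *Meg3*, *Rian* and *Mirg* are transcribed from the maternal copy of the *Dlk1*-*Dio3* domain, *H19* from the maternal copy next to *Igf2*, and *Kcnq1ot1* from the paternal copy, where it runs antisense through *Kcnq1* and silences neighbors such as *Cdkn1c*. *Rmst* marks the developing midbrain and other neural tissue and binds SOX2. *Tug1* is widely expressed.

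*Malat1* and *Neat1* are neighbors on chromosome 19 and share an unusual 3′ end, a U-rich run that folds back on an A-rich tail and protects RNAs that lack a poly(A) tail. The 3′ ends of the longest annotated transcripts are shown because they mark these RNAs as a class that a library of total RNA can capture. Each line gives 60 bases, and capitals mark the A-rich tail (the last 10 bases of *Neat1*) and the longest upstream run that both share, which is 16 bases long. In *Malat1* the match ends 292 bases before the annotated end, and the tail occurs once in each transcript. Sequences are from Gencode M21, as DNA letters.
Neat1-201: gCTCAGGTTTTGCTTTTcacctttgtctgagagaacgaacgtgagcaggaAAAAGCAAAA
Malat1-201: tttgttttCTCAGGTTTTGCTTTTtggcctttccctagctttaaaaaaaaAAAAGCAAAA

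Start-site windows from 250 bases before to 50 bases after the first base were present in RefSeq (GRCm38.p6) for 7 of the 10 members. 3 are printed, those of *Malat1*, the member whose groups were separate, and of *Kcnq1ot1* and *Meg3*, the leading RNAs of 2 imprinted domains. Capitals mark matches on either strand to CCAAT, TGACGTCA (the cAMP response element), GGGCGG (the Sp1 box) and TATAAA, which are found in 37.4%, 1.79%, 35.7% and 13.6% of all 32851 windows. The window of *Malat1* (chr19:5802623-5802922, minus strand) held none of these letters, that of *Kcnq1ot1* (chr7:143296498-143296797, minus strand) held CCAAT 3 times, and the first window of *Meg3* (chr12:109540746-109541045, plus strand) held 1 CCAAT, 1 TGACGTCA and 2 overlapping TATAAA matches that read into each other on opposite strands. These are matches of letters, and no binding was measured.
Malat1 start: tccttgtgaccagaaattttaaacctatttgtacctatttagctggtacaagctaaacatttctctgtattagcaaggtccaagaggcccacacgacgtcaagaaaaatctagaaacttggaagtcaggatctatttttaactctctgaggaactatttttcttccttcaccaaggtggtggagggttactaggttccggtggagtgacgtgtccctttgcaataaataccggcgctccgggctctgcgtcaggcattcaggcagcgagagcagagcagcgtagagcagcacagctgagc
Kcnq1ot1 start: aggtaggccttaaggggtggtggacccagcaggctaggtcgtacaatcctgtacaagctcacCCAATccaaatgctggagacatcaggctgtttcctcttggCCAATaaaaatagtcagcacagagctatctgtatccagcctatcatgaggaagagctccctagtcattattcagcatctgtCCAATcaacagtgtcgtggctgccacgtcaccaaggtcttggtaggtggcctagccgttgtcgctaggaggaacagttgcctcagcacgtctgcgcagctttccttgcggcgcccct
Meg3 start: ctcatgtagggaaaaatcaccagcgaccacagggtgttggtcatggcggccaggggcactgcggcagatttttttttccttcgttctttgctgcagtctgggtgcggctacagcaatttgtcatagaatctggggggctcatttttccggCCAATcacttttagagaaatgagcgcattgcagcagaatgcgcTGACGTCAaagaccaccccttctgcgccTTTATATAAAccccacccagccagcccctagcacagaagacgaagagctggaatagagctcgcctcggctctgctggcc

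5 members are hosts of microRNAs on their own strand, with 14 microRNA genes inside *Mirg*, 3 inside *Rian*, 2 each inside *Meg3* and *Rmst*, and 1 inside *H19*. A mature sequence from each host is printed as RefSeq gives it, with the seed (bases 2 to 8, which pair with targets) in capitals, and the 6 seeds all differ.
miR-134-5p (Mirg): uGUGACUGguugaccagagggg
miR-382-5p (Mirg): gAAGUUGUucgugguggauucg
miR-370-3p (Rian): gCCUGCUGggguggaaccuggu
miR-770-5p (Meg3): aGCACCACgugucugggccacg
miR-135a-5p (Rmst): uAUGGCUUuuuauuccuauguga
miR-675-5p (H19): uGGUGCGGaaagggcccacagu

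Libraries held 36378803 to 74909774 counted reads. Each level below is a CPM value (reads relative to library size, corrected by the trimmed mean of M-values, TMM), and differences as the log2 fold change of Het against WT with its SE. Of the 15584 rows tested with edgeR's quasi-likelihood test, 1 passed an adjusted p of 0.05 (0.00642%), 677 were higher in Het at an unadjusted p under 0.05 (4.34%) and 637 were lower (4.09%). *Snrpb* itself, measured in whole heads, lay at 430, 438 and 414 CPM in WT and at 436, 412 and 430 CPM in Het, with a log2 fold change of -0.0036 ± 0.039 (SE). In younger embryos with the deletion made by a widespread Cre, the study found significantly less *Snrpb* RNA by quantitative RT-PCR. The deletion removes only part of the gene, and the study found that it yields a shorter transcript. Reads of the deleted copy may therefore be counted here, and intact *Snrpb* RNA was not measured apart. The pools also differed in the sex of their embryos: *Xist*, expressed from the inactive X of females, was at 0.368 CPM in Het replicate 2 and at 65.0 to 155 CPM in the other 5 libraries. The summed level of 4 Y-linked genes was 62.8 to 120 CPM in WT and 111 to 228 CPM in Het.

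None of the 10 members passed the adjusted threshold with edgeR. 8 had a higher mean in Het and 2 (*Rmst* and *Tug1*) a lower one, with a median log2 fold change of 0.23 over the members, 0.18 over the 600 lncRNAs tested and 0.00041 over all rows tested. Of those 600 lncRNAs, 71.7% had a positive value, against 50.2% of all rows. 1 member, *Malat1*, had an unadjusted p under 0.05, and it was also the only one whose 3 Het libraries all lay above the 3 WT libraries, a pattern found in 8.32% of all rows tested. No member had all Het libraries below WT, as 6.92% of the rows had. A share of 1 in 10 is thus close to what all rows gave.

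**Figure D1:**
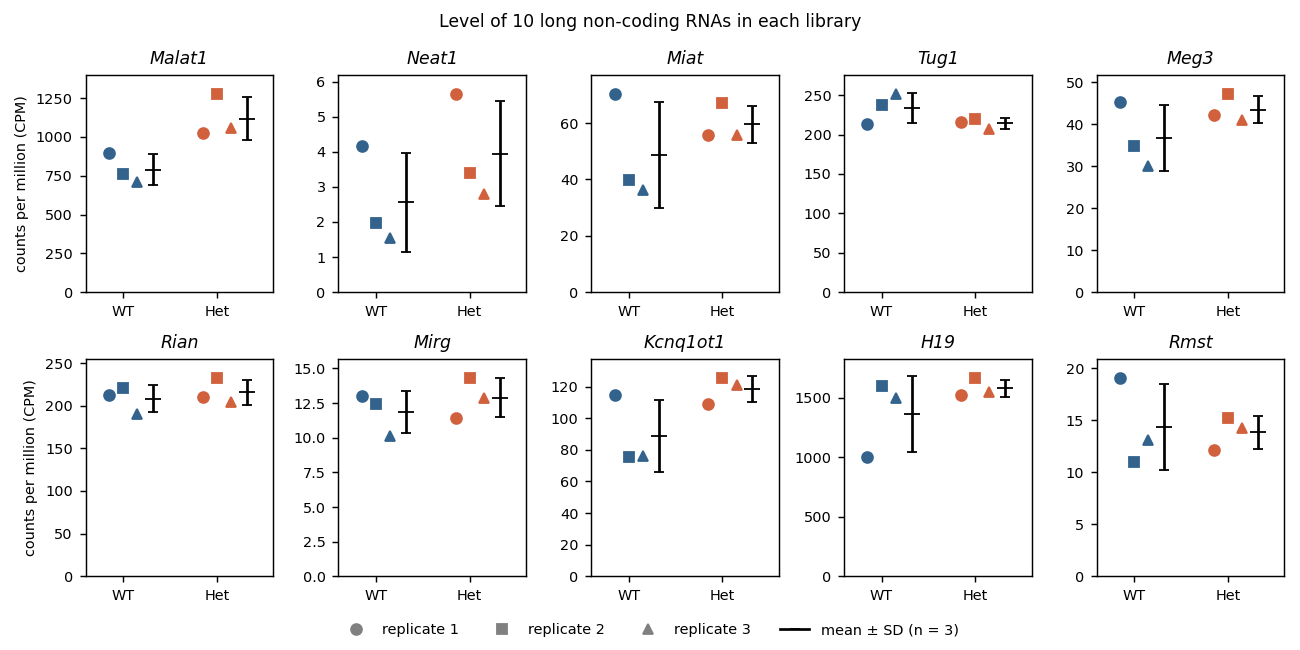
Level of each member in CPM (vertical axes, from 0) in the 3 WT and 3 Het libraries, with symbols for the replicate number and black bars for the mean ± SD (n = 3). The groups are separate for *Malat1* alone, and WT replicate 1 is the highest WT library for 7 of the 10 members, against 38.1% of all rows tested.

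*Malat1* (chr19:5795690-5802672, minus strand, GRCm38) is a single-exon RNA in its longest form of 6983 bases and was the third most abundant of the 600 lncRNAs by CPM. Its level was 899, 759 and 709 CPM in WT and 1026, 1274 and 1055 CPM in Het. Every Het library lay above every WT library, and the lowest Het value was 1.14 times the highest WT value. Mean levels were 789 ± 98.5 CPM in WT and 1119 ± 136 CPM in Het (SD, n = 3), a ratio of 1.42. The log2 fold change was 0.50 ± 0.12 (SE), with an unadjusted p of 0.0052 and an adjusted p of 0.433 in edgeR. With DESeq2, the tool used in the study, *Malat1* was called at an adjusted p of 0.000524, 1 of 84 genes called among 12908 with an adjusted p (0.651%). The study also ran DESeq2 on lncRNAs, with separately quantified reads. It also required an absolute log2 fold change above 0.5, and the DESeq2 value of *Malat1* here, 0.499, lies just under that cutoff. The study reported no lncRNA differences in the mutants, without showing those results. With the Y-linked level as a covariate its log2 fold change was 0.32 and its unadjusted p was 0.063 in edgeR. With the same covariate *Neat1* was at 0.17, *Meg3* at 0.029, *Miat* at 0.018, *Kcnq1ot1* at 0.34 and *H19* at 0.20.

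*Neat1* (chr19:5824708-5845478, minus strand) was the scarcest member. Its counts were 57 to 258 per library, which gave 4.17, 1.98 and 1.54 CPM in WT and 5.64, 3.39 and 2.80 CPM in Het. WT replicate 1 lay above 2 of the Het libraries, and the groups overlapped. The log2 fold change of 0.62 ± 0.44 (SE) was the largest of the members with the widest error (adjusted p = 0.739, edgeR). *Neat1* and *Malat1* were not in a fixed proportion. The log2 ratio of their counts was -7.75, -8.59 and -8.85 in WT and -7.51, -8.55 and -8.56 in Het, so replicate 1 of each group had more *Neat1* per *Malat1* than the other libraries. The Het mean exceeded the WT mean by 0.19 (exact permutation test, two-sided p = 0.5), and the difference was 0.51 without WT replicate 1, -0.04 without WT replicate 3 and -0.16 without Het replicate 1.

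*Miat* (chr5:112213228-112229395, minus strand) was at 70.2, 39.7 and 36.1 CPM in WT and 55.7, 67.2 and 55.6 CPM in Het. The groups overlapped through WT replicate 1, which was the highest of all 6 libraries. Its fitted difference was 0.29 ± 0.29 on the log2 scale (SE; adjusted p = 0.827, edgeR).

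*Tug1* (chr11:3639785-3649673, minus strand) starts beside *Morc2a* and overlaps it on the opposite strand. It was at 213, 237 and 251 CPM in WT and 215, 220 and 207 CPM in Het. 2 of the WT libraries lay above all Het libraries and WT replicate 1 lay among them. Its log2 fold change was -0.13 ± 0.06 (SE; adjusted p = 0.621, edgeR), and *Morc2a* had a value of -0.08 ± 0.041 (SE; adjusted p = 0.636, edgeR).

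None of the genes for proteins of the same nuclear bodies was called. Of 18 paraspeckle proteins, all tested, 5 were higher and 13 lower in Het, with a median log2 fold change of -0.052. At an unadjusted p under 0.05 (edgeR), 22.2% of them were lower, against 4.09% of all rows, and 5.56% were higher, against 4.34%. This list was chosen with earlier results of these data known, so these shares are a description only. *Rbm14* (-0.15), *Rbm12* (-0.14), *Smarca4* (-0.15) and *Hnrnph3* (-0.16) had lower values at an unadjusted p under 0.05, and *Rbm3*, a cold-inducible RNA-binding protein, had a higher one (0.14). The 2 most abundant, *Hnrnpk* and *Hnrnph1*, lay at 0.0045 and -0.03. Of 15 speckle proteins, 6 were higher and 9 lower (median -0.04, none called), with *Srsf1* and *Srsf2* at 0.0011 and -0.06 and the kinase *Cdk12* at -0.12 (unadjusted p = 0.0185, edgeR). Of 12 genes for the processing and stability of *Malat1*, 8 were higher and 4 lower (median 0.046, none called). Among them the RNA methyltransferase *Mettl16*, which binds the *Malat1* 3′ end, was at 0.12 (unadjusted p = 0.0209, edgeR), and *Drosha*, the most abundant, was at 0.04.

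The *Dlk1*-*Dio3* domain contributed *Meg3* (chr12:109541001-109571726), *Rian* (chr12:109603940-109661716) and *Mirg* (chr12:109729764-109749460), which follow each other on the plus strand. *Meg3* was at 45.4, 34.8 and 30.1 CPM in WT and 42.2, 47.2 and 41.2 CPM in Het. WT replicate 1 lay within the Het range and the other 2 WT libraries below it. On these levels the log2 fold change was 0.24 ± 0.15 (SE; adjusted p = 0.694, edgeR).

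*Rian*, the host of C/D-box small nucleolar RNAs, was at 213, 221 and 190 CPM in WT and 210, 232 and 205 CPM in Het, and the groups overlapped throughout. Its log2 fold change was 0.05 ± 0.067 (SE; adjusted p = 0.871, edgeR), and its sign turned with the Y-linked covariate (-0.12), without WT replicate 3 (-0.01) and without Het replicate 2 (-0.007).

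*Mirg*, the host of the distal microRNA cluster, was at 13, 12.5 and 10.1 CPM in WT and 11.5, 14.3 and 12.9 CPM in Het. The groups overlapped, with a log2 fold change of 0.12 ± 0.12 (SE; adjusted p = 0.811, edgeR) that turned to -0.06 with the Y-linked covariate.

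Ratios within a library do not depend on scaling. The log2 ratio of *Rian* to *Meg3* counts was 2.23, 2.67 and 2.66 in WT and 2.31, 2.30 and 2.31 in Het. WT replicate 1 was lowest and the other 2 WT libraries highest, with the 3 Het libraries close together between them. The difference in means was -0.21 (exact permutation test, two-sided p = 0.4), and it was -0.35 without WT replicate 1 and -0.13 without WT replicate 2. The log2 ratio of *Mirg* to *Meg3* was -1.80, -1.48 and -1.58 in WT and -1.88, -1.72 and -1.67 in Het, a difference of -0.14 (exact permutation p = 0.3) that ranged from -0.23 without WT replicate 1 to -0.07 without WT replicate 2. With 3 against 3 libraries the smallest p possible was 0.1, and all 5 ratios tested had a Benjamini-Hochberg adjusted p of 0.5 over these exact permutation tests.

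**Figure D2:**
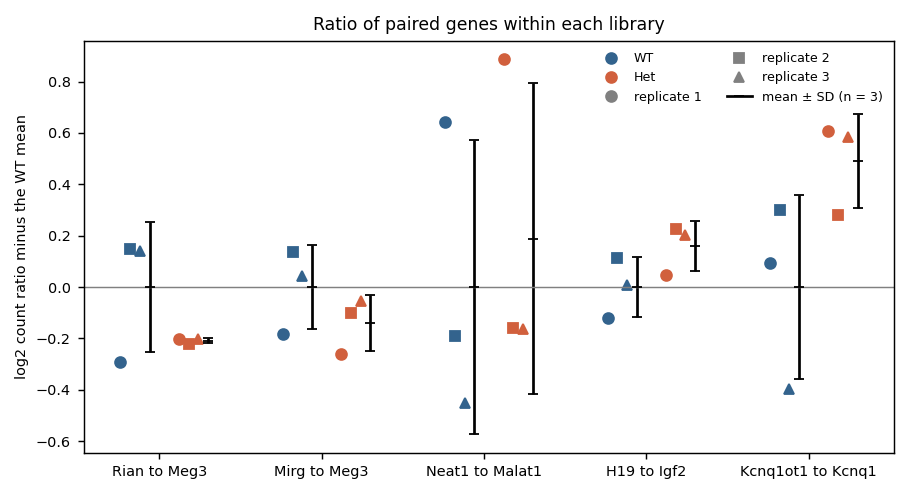
Log2 count ratio of 5 gene pairs in each library, minus the WT mean of that ratio, with symbols for the replicate number, color for the group and black bars for the mean ± SD (n = 3). In the *Rian* to *Meg3* ratio the 3 Het libraries lie between WT replicate 1 and the other 2 WT libraries, and in no pair are the groups separate.

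Other genes of the domain were compared in the same fit. The paternally expressed *Dlk1* was at 62.6, 34.8 and 46.3 CPM in WT and 36.6, 40.2 and 45.1 CPM in Het (log2 fold change -0.23 ± 0.22, SE), and *Rtl1* had a value of 0.31 ± 0.21 (SE). Of 3 paternal genes 2 were higher and 1 lower, and none was called. Whether reads were counted by strand is not known, so the *Rtl1* row may also hold antisense reads. Its value is thus not a measure of the paternal copy alone. Of 52 microRNA genes of the domain, 49 had a row. The libraries were of total RNA with paired 100-nucleotide reads, so reads in these rows come from longer RNAs and not from mature microRNAs. Over all 49 rows the summed level was 8.24, 7.27 and 5.49 CPM in WT and 8.90, 11.0 and 10.4 CPM in Het, and the 3 Het libraries lay above the 3 WT libraries. These sums rest on 203 to 835 counts a library. The 13 listed rows inside *Mirg* summed to 3.98, 3.59 and 3.08 CPM in WT and 3.88, 4.87 and 4.90 CPM in Het, where WT replicate 1 exceeded Het replicate 1. How reads that lie in both a host and a microRNA row were assigned is not given for both counting tools named in the sources.

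15 of the 49 microRNA rows passed the filter on low counts, and all 15 had a positive value, with none called. Because a row this scarce may pass through its higher group, this count and the p-values of these rows are descriptions only. The lowest p was that of *Mir134*, at 0.385, 0.494 and 0.459 CPM in WT and 0.663, 0.934 and 0.857 CPM in Het (log2 fold change 0.87 ± 0.24, SE; unadjusted p = 0.00519, adjusted p = 0.433, edgeR). The groups of *Mir134* were separate. *Mir494* and *Mir544*, both upstream of *Mirg*, had values of 1.06 ± 0.39 and 1.20 ± 0.49 (SE) at unadjusted p-values of 0.0236 and 0.0361 (edgeR). They held only 74 and 76 counts over all libraries together, and *Mir134* held 216. The 2 most abundant rows, *Mir668* and *Mir453*, had values of 0.10 ± 0.19 and 0.15 ± 0.23 (SE).

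**Figure D3:**
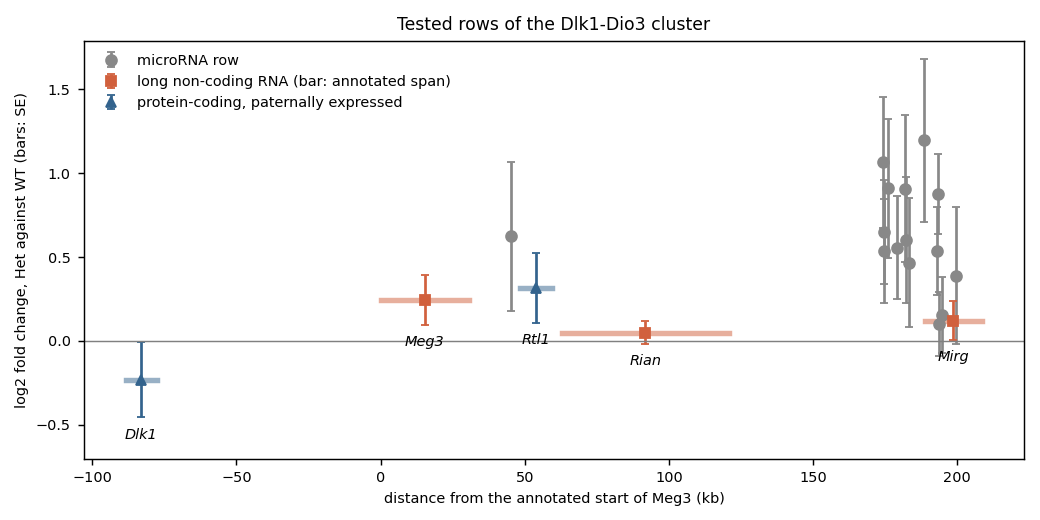
Log2 fold change of Het against WT (vertical axis, bars are SE) of each tested row of the domain against its distance in kb from the annotated start of *Meg3*, with horizontal bars for the annotated spans. *Dio3*, more distal, is left out. All 15 microRNA rows that passed the filter are above 0, a count that the filter can favor. The 2 most abundant of them, *Mir668* and *Mir453*, lie at 0.10 and 0.15, and *Rian* and *Mirg* at 0.05 and 0.12.

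2 members come from neighboring imprinted domains of chromosome 7. *Kcnq1ot1* (chr7:143203458-143296549, minus strand) is annotated as 1 unspliced RNA of 93092 bases that overlaps *Kcnq1* on the opposite strand. It was at 115, 75.3 and 76.0 CPM in WT and 109, 125 and 121 CPM in Het. 2 WT libraries lay well below all Het libraries, and WT replicate 1 lay above Het replicate 1. The log2 fold change was 0.42 ± 0.18 (SE; unadjusted p = 0.0672, adjusted p = 0.621, edgeR). The log2 ratio of *Kcnq1ot1* to *Kcnq1* counts was 6.90, 7.11 and 6.41 in WT and 7.42, 7.09 and 7.39 in Het, a difference of 0.49 (exact permutation p = 0.2) that rests on as few as 27 counts of *Kcnq1* in a library. This difference was 0.29 without WT replicate 3 and 0.64 without WT replicate 2. The kit kept strand, but no source used here says whether reads were counted by strand, so sense and antisense reads may be mixed. Of 12 other genes of this domain that were tested, 5 were higher and 7 lower (median -0.012, none called). *Cdkn1c*, a cell-cycle inhibitor in the silenced stretch, was at 87.4 ± 11.9 CPM in WT and 89.7 ± 3.37 CPM in Het (SD, n = 3). The 2 most abundant, *Nap1l4* and *Cd81*, both had values of -0.02.

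*H19* (chr7:142575529-142578143, minus strand) was the second most abundant of the 600 lncRNAs. It was at 997, 1600 and 1493 CPM in WT and 1520, 1662 and 1551 CPM in Het. WT replicate 1 stood below the other 5 libraries, and WT replicate 2 lay within the Het range. The log2 fold change was 0.21 ± 0.19 (SE; adjusted p = 0.805, edgeR). *Igf2*, the growth factor gene expressed from the other parental copy, was at 220, 301 and 302 CPM in WT and 299, 289 and 274 CPM in Het, so it too was lowest in WT replicate 1. The log2 ratio of *H19* to *Igf2* was 2.18, 2.41 and 2.31 in WT and 2.34, 2.52 and 2.50 in Het, a difference of 0.16 (exact permutation p = 0.2) that was 0.098 without WT replicate 1. *Mir675*, which lies in an *H19* exon, held 0 counts in every library although *H19* held 36311 to 126311. Of the 5 listed genes of this domain 2 passed the filter (*Igf2*, 0.07, and *Igf2os*, 0.12), and neither was called.

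*Rmst* (chr10:92071037-92165170, minus strand) was at 19, 11.0 and 13.1 CPM in WT and 12.1, 15.2 and 14.3 CPM in Het. WT replicate 1 was the highest library and WT replicate 2 the lowest, and all Het libraries lay between them. The log2 fold change was -0.04 ± 0.21 (SE; adjusted p = 0.975, edgeR), and it was 0.21 without WT replicate 1 and 0.04 without Het replicate 1. Of 10 *Rmst* partners and midbrain genes, 4 were higher and 6 lower (median -0.017, none called). *Sox2*, the pluripotency and neural progenitor factor that *Rmst* binds, was at -0.10 ± 0.05 and *Hnrnpa2b1* at 0.06 ± 0.03 (SE).

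1 WT library stood apart and bears on most members. Summed visceral endoderm markers (8 of 8 in the table, 7 tested) were at 35.9 CPM in WT replicate 1 and 8.09 to 10.5 CPM in the other 5 libraries. Cardiac markers (6 of 6, 5 tested) were at 4.17 CPM in it and 14.4 to 51.6 CPM elsewhere. Primitive erythroid markers (7 of 7, 6 tested, 1 at 0 throughout) were at 1487 CPM and 874 to 1208 CPM elsewhere, and neural markers (8 of 8) at 966 CPM and 770 to 838 CPM elsewhere. Neural crest markers (8 of 8) were at 250 CPM against 293 to 324 CPM elsewhere, and surface ectoderm markers (6 of 6) at 296 CPM against 401 to 408 CPM. Head mesenchyme and endothelial markers (6 of 6 each) lay within the range of the others, at 349 and 210 CPM. With all libraries the 8 neural markers were lower in Het (median -0.16) and the 8 neural crest markers higher (median 0.092), with none called. Without WT replicate 1, 2 neural markers were higher and 6 lower (median -0.063), and 5 neural crest markers were higher and 3 lower (median 0.012). 1 marker of any list had an unadjusted p under 0.05, the mesenchymal collagen gene *Col1a2* (-0.33 ± 0.12, SE; adjusted p = 0.536, edgeR). In heads sequenced whole, fewer cells of a type and less RNA per cell cannot be told apart. The part of these differences in the levels of the lncRNAs was not tested.

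**Figure D4:**
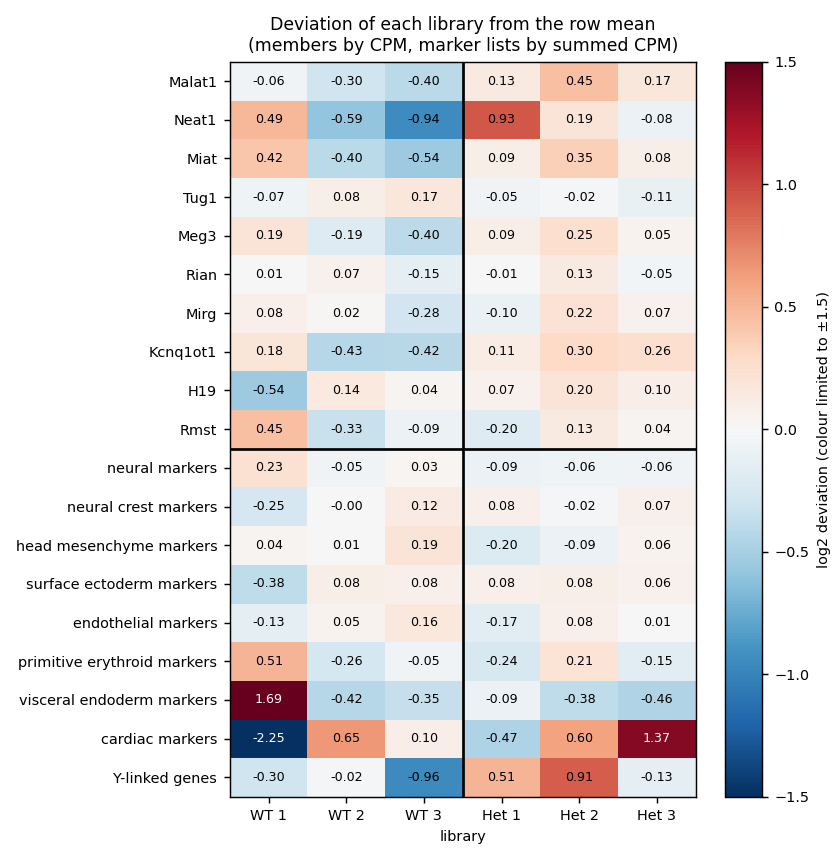
Log2 deviation of each library from the mean of its row, for the 10 members (by CPM) and for 9 gene lists (by summed CPM), with the 3 WT libraries left of the vertical line and the 3 Het libraries right of it. WT replicate 1 has the highest visceral endoderm and lowest cardiac marker levels, and among WT libraries the highest *Malat1*, *Neat1*, *Miat*, *Meg3*, *Mirg*, *Kcnq1ot1* and *Rmst*.

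Values were therefore also fitted without WT replicate 1, which leaves 2 WT libraries. It was the highest WT library for 7 of the 10 members (38.1% of all rows tested), so leaving it out lowers their WT mean. The median log2 fold change of the members was then 0.31, 9 were positive and 6 had an unadjusted p under 0.05 in edgeR, where 10% of the 15967 rows tested had one. *Kcnq1ot1* (0.65 ± 0.06, SE) was called at an adjusted p of 0.0198 in edgeR, 1 of 6 genes called (0.0376%). Leaving out other libraries lowered several values: *Neat1* was at 0.29 without Het replicate 1, and without WT replicate 3 *Miat* and *Meg3* were each at 0.12 and *Mirg* at 0.02. Without WT replicate 1, the values of *Malat1* (0.60 ± 0.10), *Neat1* (1.12 ± 0.34), *Meg3* (0.42 ± 0.081) and *Miat* (0.65 ± 0.093, all SE) were larger than with all libraries but not called. *H19* was at 0.02 ± 0.047 and *Tug1* at -0.19 ± 0.044 (SE). 5 members had all Het libraries above WT replicates 2 and 3 (*Malat1*, *Neat1*, *Kcnq1ot1*, *Meg3* and *Miat*), as 14.9% of all rows had. *Tug1* had all Het libraries below them, as 13.5% had. All rows are not a like background, since 71.7% of the 600 lncRNAs were positive with all libraries. The shares among lncRNAs without WT replicate 1 were not counted. With DESeq2 the same subset called 112 of 13246 genes (0.846%), 4 of them members: *Malat1*, *Kcnq1ot1*, *Meg3* and *Miat*. This last fit was chosen after seeing the data. *Kcnq1ot1*, *Meg3* and *Miat* were thus called by DESeq2 without WT replicate 1 and not with all libraries. DESeq2 was not run with any other library left out.

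**Figure D5:**
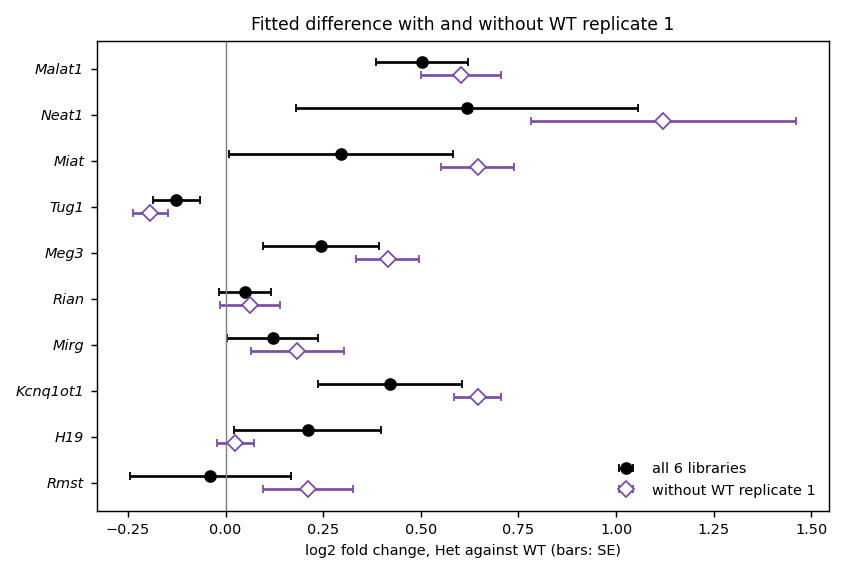
Log2 fold change of Het against WT (horizontal axis, bars are SE) of each member in edgeR with all 6 libraries (filled) and without WT replicate 1 (open). Without that library the values of *Neat1*, *Miat*, *Kcnq1ot1* and *Meg3* are larger, that of *H19* falls to 0.02 and that of *Rmst* turns from -0.04 to 0.21.

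Levels of different members were compared per kb of annotated exon (CPM per kb, exons of Gencode M21 merged). In WT the order was *H19* at 554 ± 131, *Malat1* at 113 ± 14.1, *Tug1* at 24.0 ± 1.98, *Rian* at 11.4 ± 0.874, *Miat* at 5.24 ± 2.02, *Meg3* at 2.03 ± 0.433, *Rmst* at 1.93 ± 0.559, *Mirg* at 1.63 ± 0.212, *Kcnq1ot1* at 0.953 ± 0.244 and *Neat1* at 0.123 ± 0.068 CPM per kb (SD, n = 3). The WT libraries of *Meg3*, *Rmst* and *Mirg* overlapped, so these neighbors were not distinct. All other neighbors in the order were separate by this length. Merged exons were longer than the longest single transcript for several members, such as *Rmst* (7423 against 2891 bases). The order may differ with another choice of length. *Neat1* was last in Het as well, at 0.190 ± 0.072 CPM per kb (SD, n = 3). For *Kcnq1ot1* the length is that of 1 unspliced RNA, the longest of the members.

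The gene most like each member across the 6 libraries (highest Pearson r of log2 CPM, a description over 6 points that share libraries and depth) was *E330033B04Rik* for *Malat1*, *Rps24* for *Neat1*, *Prmt1* for *Miat*, *Gen1* for *Tug1*, *Gm16617* for *Meg3*, *Snord37* for *Rian*, *Naa38* for *Mirg*, *E130317F20Rik* for *Kcnq1ot1*, *Lpar6* for *H19* and *Creb3l1* for *Rmst*. With r between 0.990 and 0.999, each is the best of the 15584 rows tested.

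Other noncoding and imprinted genes were counted from lists. Of 42 other lncRNAs, 35 had a row and 29 were tested, and 22 were higher and 7 lower in Het (median 0.16). None was called by edgeR and 5 were called by DESeq2. The DESeq2 calls compare with 0.651% of all rows that had an adjusted p. At an unadjusted p under 0.05 in edgeR, 9 (31.0%) were higher, against 4.34% of all rows, and none lower, against 4.09%. The list was chosen with earlier results of these data known, so these shares and calls are a description only. Of the 600 lncRNAs tested, 71.7% had a positive value, so all rows are not a like background. The 6 lowest p-values in edgeR were those of *Gas5* (0.32 ± 0.05), *Snhg8* (0.25 ± 0.05), *Snhg4* (0.32 ± 0.06), *Mir17hg* (0.58 ± 0.13), *Snhg5* (0.18 ± 0.05) and *Snhg12* (0.32 ± 0.10, all SE). These genes are hosts of small nucleolar RNAs except *Mir17hg*, a microRNA host. *Gas5*, the most abundant of them, was at 285, 290 and 266 CPM in WT and 343, 370 and 334 CPM in Het, and the groups were separate, WT replicate 1 included. The next most abundant, *2900097C17Rik*, was at -0.07 ± 0.10 (SE).

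Of 35 other imprinted genes, 32 were tested, 17 higher and 15 lower (median 0.014, none called). *Nespas*, an antisense RNA of the *Gnas* domain, was at 17, 15.4 and 12.3 CPM in WT and 18.7, 20.8 and 19 CPM in Het (0.39 ± 0.11, SE; unadjusted p = 0.00756, edgeR), and its groups were separate. *Mcts2* had a value of 0.23 ± 0.07 and *Mest*, a paternally expressed mesoderm gene, of -0.11 ± 0.04 (SE), both at an unadjusted p under 0.05. *Grb10*, the most abundant, was at -0.06 ± 0.05 (SE).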

How the data were processed

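RNA was extracted from pools of 2 heads with a Qiagen RNeasy kit, and ribosomal RNA was depleted for stranded total RNA libraries, read in pairs. The authors deposited unnormalized read counts per gene. The study's methods name CutAdapt, STAR, Gencode M2 on mm10 and HTSeq, whereas the submitters' processing notes list Trim Galore, STAR, MultiQC and featureCounts, so the counter, its strand setting and its treatment of overlapping genes are uncertain. Positions and lengths are from Gencode M21 on the same build (GRCm38); 23376 of 24421 symbols matched.

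Counts of 3 WT and 3 Het libraries were filtered with filterByExpr (15584 rows kept), scaled by TMM and tested with edgeR 4.0.16 (quasi-likelihood, 2 groups, no covariate) under R 4.3.3, with Benjamini-Hochberg adjusted p-values over all tested rows. DESeq2 1.42.0 was an alternative, with others on scaling, filter, a Y-linked covariate, replicate block and left-out libraries. Ratios of raw counts were compared by an exact permutation test. The steps were tested on simulated counts. Total counts of 36378803 to 74909774 set the precision, and the scarcest member had 57 reads in 1 library. Pools are separate samples, so p-values measure the spread between pools. No 2 libraries agreed within sampling noise (chi-square per degree of freedom 10.2 to 28.3).

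The named genes are all members, in each other list the 2 most abundant genes and up to 6 with the lowest unadjusted p under 0.05, the most similar gene of each member, and *Snrpb*. Marker lists are given as summed levels. *Cdkn1c*, *Firre*, *Igf2os*, *Mir675*, *Morc2a* and *Xist* were added after their values were seen. The members and lists were chosen with earlier results of these data known. None of the 13 mitochondrial mRNAs listed had a row, and they were not used.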

Additional observations from a re-analysis of the deposited data

How the results depend on the processing

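The number of members called was 0 in edgeR with all libraries, 1 with DESeq2, 4 with DESeq2 without WT replicate 1 (chosen after seeing the data), and 0 to 1 in edgeR with each library left out in turn. For all genes it was 1, 84, 112 and 0 to 6 in the same order, 11 with no low-count filter and 0 with the Y-linked covariate. DESeq2 called *Malat1* (log2 fold change 0.50), and without WT replicate 1 it called *Malat1* (0.60), *Kcnq1ot1* (0.64), *Meg3* (0.42) and *Miat* (0.65) and turned *Rmst* (0.21). With 1 library left out the edgeR values ranged from 0.31 to 0.65 for *Kcnq1ot1* (called at 0.65 without WT replicate 1), from -0.010 to 0.10 for *Rian*, from -0.20 to 0.21 for *Rmst*, from 0.40 to 0.60 for *Malat1*, from 0.29 to 1.12 for *Neat1*, from 0.12 to 0.42 for *Meg3*, from 0.12 to 0.65 for *Miat*, from 0.02 to 0.19 for *Mirg*, from 0.02 to 0.34 for *H19* and from -0.19 to -0.07 for *Tug1*. *Rian* turned to -0.010 without WT replicate 3 and to -0.007 without Het replicate 2, and *Rmst* to 0.21 without WT replicate 1 and to 0.04 without Het replicate 1. With the Y-linked covariate *Rian* was at -0.12 and *Mirg* at -0.061. *Malat1* (0.32, unadjusted p = 0.063, edgeR), *Meg3* (0.029), *Miat* (0.018) and *Neat1* (0.17) were smaller by over 1.5 times. The cause was not tested. Scaling by DESeq2 size factors, by library size or by protein-coding genes turned no member's sign.

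With the replicate number as a block (replicate block), 0 members and 1 gene were called, and 2 members had an unadjusted p under 0.05 in edgeR. These were *Malat1* (0.50 ± 0.12, SE; unadjusted p = 0.00967) and *Neat1* (0.68 ± 0.15, SE; unadjusted p = 0.00215, adjusted p = 0.304). Same-numbered WT and Het libraries correlated in their deviations at 0.17, 0.032 and 0.36, which does not settle whether the numbers pair the samples. WT replicates 1 and 3 correlated best with their own number, and WT replicate 2 about equally with Het replicates 1 (0.039) and 2 (0.032).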
